A study of Homo sapiens with 6 samples.

Results

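The miR-183/miR-96/miR-182 cluster was examined in small RNA libraries of extracellular vesicles (EVs) from MDA-MB-231 cells, a triple-negative human breast cancer cell line. Its members were taken by name as the guide strands of 1 polycistron, hsa-miR-183-5p, hsa-miR-96-5p and hsa-miR-182-5p, which are 3 of the 832 miRNAs in the table. The study asked whether aconitase 1 (ACO1), an iron-responsive enzyme that also binds RNA, affects which miRNAs leave the cell in EVs. The groups compared were 3 libraries of EVs from wild-type cells (231 EV) and 3 libraries of EVs from cells with ACO1 knocked down (231/ACO1 KD EV), both pelleted by ultracentrifugation from EV-free medium. How ACO1 was knocked down for these libraries, whether the line was a clone and whether the wild-type cells carried a control construct are not given in the sources used here. The libraries hold small RNA alone and give no level of ACO1 mRNA, which leaves the knockdown unchecked in these data.

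miRNAs of a polycistron are cut from a shared primary transcript as separate hairpins, and 1 strand of each hairpin, the guide, is usually kept by an Argonaute protein while the other, the passenger, is mostly lost. A guide finds its target mRNAs mainly through its seed, bases 2 to 8. The miR-183/miR-96/miR-182 cluster is best known from sensory cells of the ear and the eye, is often raised in epithelial tumours including those of the breast, and has FOXO transcription factors among its known targets.

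The mature sequences of the 3 guides are shown because their near-identical seeds are the feature they share beyond their locus. Sequences are from RefSeq, 5′ to 3′, with the seed in capitals.
hsa-miR-183-5p: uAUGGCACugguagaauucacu
hsa-miR-96-5p: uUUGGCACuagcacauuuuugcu
hsa-miR-182-5p: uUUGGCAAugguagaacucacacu

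All 3 seeds hold the letters UGGCA, searched on the mature strand, as do 15 of the 2370 mature human miRNAs in the RefSeq table (0.633%) within bases 2 to 8. Of the 715 miRNAs of the count table that matched RefSeq by name, 3 had these letters there (0.42%), and they were the 3 members. Counted from 1 at the 5′ end, the seed of hsa-miR-182-5p differs from that of hsa-miR-96-5p by C8A, and the seed of hsa-miR-183-5p differs from that of hsa-miR-96-5p by U2A. Over the whole length from their 5′ ends, seed included, hsa-miR-182-5p and hsa-miR-183-5p were identical at 18 of 22 positions (81.8%), hsa-miR-96-5p and hsa-miR-183-5p at 13 of 22 (59.1%), and hsa-miR-96-5p and hsa-miR-182-5p at 12 of 23 (52.2%). The full seed of hsa-miR-96-5p recurs in RefSeq in hsa-miR-1271-5p, which is not analysed here. How the matching to miRBase divided reads that resemble more than 1 of the guides is not given in the sources used here.

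On GRCh38.p14 the guides lie on the minus strand at chr7:129774967-129774988 (hsa-miR-183-5p), chr7:129774739-129774761 (hsa-miR-96-5p) and chr7:129770447-129770470 (hsa-miR-182-5p). In GENCODE release 29 the hairpin genes MIR183, MIR96 and MIR182 span 4632 bases together. MIR183 and MIR96 stand 135 bases apart, whereas 4199 bases separate MIR96 from MIR182. No other annotated gene overlaps any of the 3 hairpins. The nearest coding genes are NRF1, which encodes a transcription factor of mitochondrial genes, 13300 bases away on the plus strand, and UBE2H, which encodes a ubiquitin-conjugating enzyme, 55717 bases away on the minus strand.

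Total counts ranged from 224948 to 230562 in 231 EV, whereas knockdown replicates 1, 2 and 3 held 175924, 67873 and 157322. A single read was worth 4.34 to 4.45 TPM (each count over its library total, scaled to a common sum) in 231 EV, but 5.68, 14.7 and 6.36 TPM in the knockdown libraries, so the knockdown values rest on fewer reads. The knockdown libraries also differed more from each other, with Pearson correlations over 226 miRNAs of 0.955 to 0.978 for their pairs against 0.989 for each pair of 231 EV. Replicate 2, the shallowest, was the least similar to the 231 EV libraries (0.909 to 0.914), and replicate 3 the most similar (0.955 to 0.958). The share of reads taken by hsa-miR-21-5p, a miRNA abundant in many solid tumours, was 28.5% to 31.2% in 231 EV and 12.2%, 11.7% and 18.4% in the knockdown libraries. Nothing in the labels says that replicates came from separate cultures, so p-values measure the spread between these libraries, which may be technical.

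The 3 guides were well detected in every library, in the same order. hsa-miR-182-5p was highest, hsa-miR-183-5p second and hsa-miR-96-5p lowest in 6 of 6 libraries. TPM here has no length term, so it orders the miRNAs of a library by their reads. How evenly different miRNAs were captured in library preparation was not measured. Levels compared between miRNAs, here and below, are therefore levels of reads. hsa-miR-182-5p was measured at 2445, 2095 and 2542 TPM in 231 EV and at 3166, 2769.9 and 2079 TPM in 231/ACO1 KD EV. hsa-miR-183-5p was measured at 1271, 1245 and 1199.97 TPM in 231 EV and at 1353, 1635 and 1062 TPM in 231/ACO1 KD EV. hsa-miR-96-5p was measured at 565, 568 and 542 TPM in 231 EV and at 404, 368 and 623 TPM in 231/ACO1 KD EV. The ranges of neighbours in this order did not overlap, within either group or across both. Among all miRNAs of a library, hsa-miR-182-5p ranked between 45 and 56, hsa-miR-183-5p between 64 and 73 and hsa-miR-96-5p between 91 and 115.

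**Figure D1:**
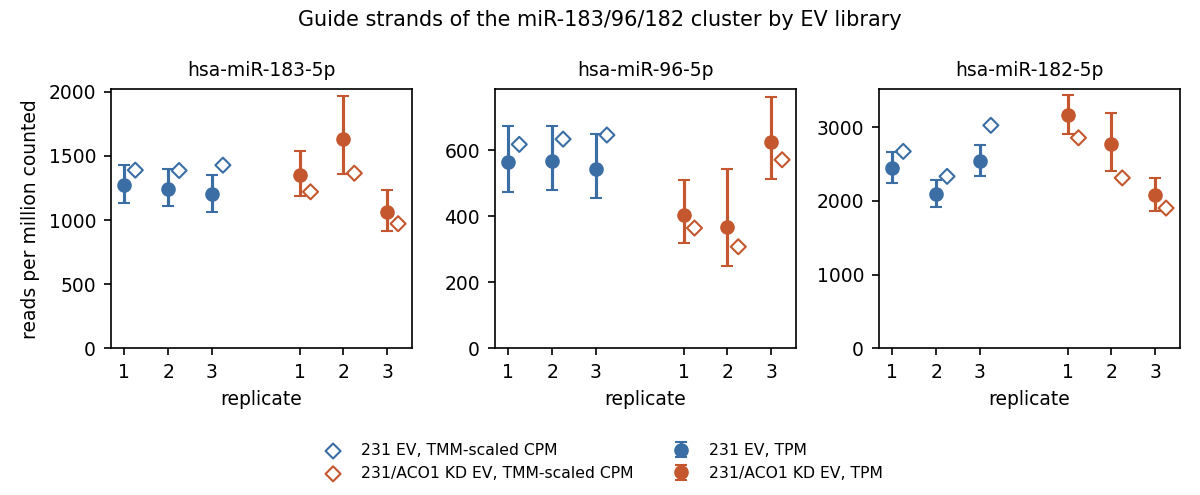
Level of each guide strand (y axis, TPM or CPM, linear from 0) in the 3 libraries of 231 EV (blue) and the 3 of 231/ACO1 KD EV (orange), with replicates on the x axis. Filled circles are TPM with 95% Wilson intervals, which cover counting error only, and open diamonds are CPM (counts scaled to a common library total) after TMM scaling, which sets that total by the bulk of miRNAs. For hsa-miR-96-5p, knockdown replicates 1 and 2 lie at 404 and 368 TPM, below all 231 EV libraries, while replicate 3 lies at 623 TPM, above them.

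The counts behind these levels ran from 25 to 572 reads. hsa-miR-182-5p had 550, 483 and 572 reads in 231 EV, against 557, 188 and 327 after knockdown. hsa-miR-183-5p had 286, 287 and 270 reads against 238, 111 and 167, and hsa-miR-96-5p had 127, 131 and 122 against 71, 25 and 98. In 231 EV the coefficient of variation of TPM was 2.52% for hsa-miR-96-5p and 2.91% for hsa-miR-183-5p, below the 8.89% and 5.97% that counting error alone gives at these depths. In 231/ACO1 KD EV it was 29.7% and 21.3%, above the 14.6% and 8.0% of counting error. hsa-miR-182-5p varied by 9.97% in 231 EV and by 20.6% in 231/ACO1 KD EV, both above its counting error of 4.33% and 5.82%. The knockdown libraries thus spread beyond counting error for all 3 guides. Reads carry no molecular identifiers, so intervals and counting errors cover counting only.

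No guide of the cluster passed an adjusted p of 0.05 between 231 EV and 231/ACO1 KD EV, and which way hsa-miR-183-5p and hsa-miR-182-5p leaned depended on the scaling. Among all 517 miRNAs tested by edgeR's quasi-likelihood test with TMM scaling, 44 passed (8.51% called), 31 of them lower and 13 higher in the knockdown. Of the 3 guides 0 passed, and 1, hsa-miR-96-5p (edgeR's unadjusted p = 0.0175), had an unadjusted p under 0.05, as 18.8% of all tested miRNAs did. DESeq2 likewise called 0 of the 3 (7.93% of all tested) and had 1 at an unadjusted p under 0.05 (14.9% of all). limma on log2(TPM + 1) called 0 (14.5% of all) and had 0 at an unadjusted p under 0.05 (24.2% of all). edgeR with plain library totals in place of TMM also called 0 of the 3, against 13.7% of all. As these are bulk EV preparations, fewer vesicles of a kind and less of an miRNA per vesicle cannot be told apart.

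The scaling set where the fold changes of all miRNAs were centred. With TMM scaling the median log2 fold change of all tested miRNAs was -0.03, and with plain library totals it was 0.32. The split of calls turned with it, from 31 lower and 13 higher under TMM to 13 lower and 58 higher under library totals. Values of the guides are therefore given on both scales, beside these medians.

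hsa-miR-96-5p had the most negative fold change of the 3. After TMM scaling it stood at 617, 633 and 645 CPM in 231 EV and at 364, 308 and 571 CPM in 231/ACO1 KD EV. Its mean was 632 ± 14.2 CPM (SD, n = 3) against 414 ± 138 CPM (SD, n = 3). All 3 knockdown libraries lay below all 3 of 231 EV, a pattern found in this direction for 12.8% of tested miRNAs, but in TPM replicate 3 lay above them. The log2 fold change was -0.59 (SE 0.25, 95% interval -1.07 to -0.10), and edgeR gave a Benjamini-Hochberg adjusted p of 0.121 over 517 miRNAs by its quasi-likelihood test. With library totals it was -0.24 (95% interval -0.73 to 0.24, adjusted p = 0.626 by the same test), below the median of 0.32.

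231/ACO1 KD EV replicate 3 decided this call. Without it, the log2 fold change of hsa-miR-96-5p was -0.89 (SE 0.24, 95% interval -1.35 to -0.42) and the adjusted p by edgeR was 0.00204, in a fit that called 8.51% of tested miRNAs as lower. The adjusted p of hsa-miR-96-5p over all 19 alternatives ran from 0.00204 to 0.626, with every fold change below 0 and 2 calls. Leaving out any other library gave adjusted p-values of 0.252 to 0.341. Without replicate 3, DESeq2 gave a log2 fold change of -0.86 (adjusted p = 0.0106, with 6.77% of tested miRNAs called as lower), edgeR with library totals -0.52 (adjusted p = 0.126) and limma -0.53 (adjusted p = 0.0639). Without that library hsa-miR-96-5p thus passed with TMM scaling and with DESeq2's size factors, and not in the fits that rest on library totals. Leaving out replicate 3 was chosen for these combined settings after its values were seen.

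hsa-miR-183-5p changed direction with the scaling. After TMM scaling it stood at 1389.6, 1387 and 1428 CPM in 231 EV and at 1221, 1366 and 972 CPM in 231/ACO1 KD EV. The groups did not overlap, a pattern found in this direction for 12.8% of tested miRNAs. In TPM, 2 knockdown libraries lay above all of 231 EV and 1 lay below. The log2 fold change was -0.25 (SE 0.19, 95% interval -0.63 to 0.13, adjusted p = 0.597 by edgeR's quasi-likelihood test) with TMM and 0.11 (adjusted p = 0.767) with library totals. On both scales it lay below the median of all tested miRNAs, which was -0.03 with TMM and 0.32 with library totals.

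hsa-miR-182-5p behaved likewise. After TMM scaling it stood at 2672, 2334 and 3026 CPM in 231 EV and at 2857, 2313 and 1904 CPM in 231/ACO1 KD EV, and the groups overlapped. The log2 fold change was -0.18 (SE 0.17, 95% interval -0.51 to 0.15, adjusted p = 0.654 by edgeR's quasi-likelihood test) with TMM and 0.18 (adjusted p = 0.578) with library totals. It too lay below the medians of -0.03 and 0.32 on these scales. For both guides 13 of 19 alternatives were below 0, 6 were above and 0 passed the test. With TMM the intervals leave room for a decrease of up to 0.63 in hsa-miR-183-5p and 0.51 in hsa-miR-182-5p on the log2 scale. With library totals they leave room for an increase of up to 0.50 in hsa-miR-183-5p and 0.51 in hsa-miR-182-5p.

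**Figure D2:**
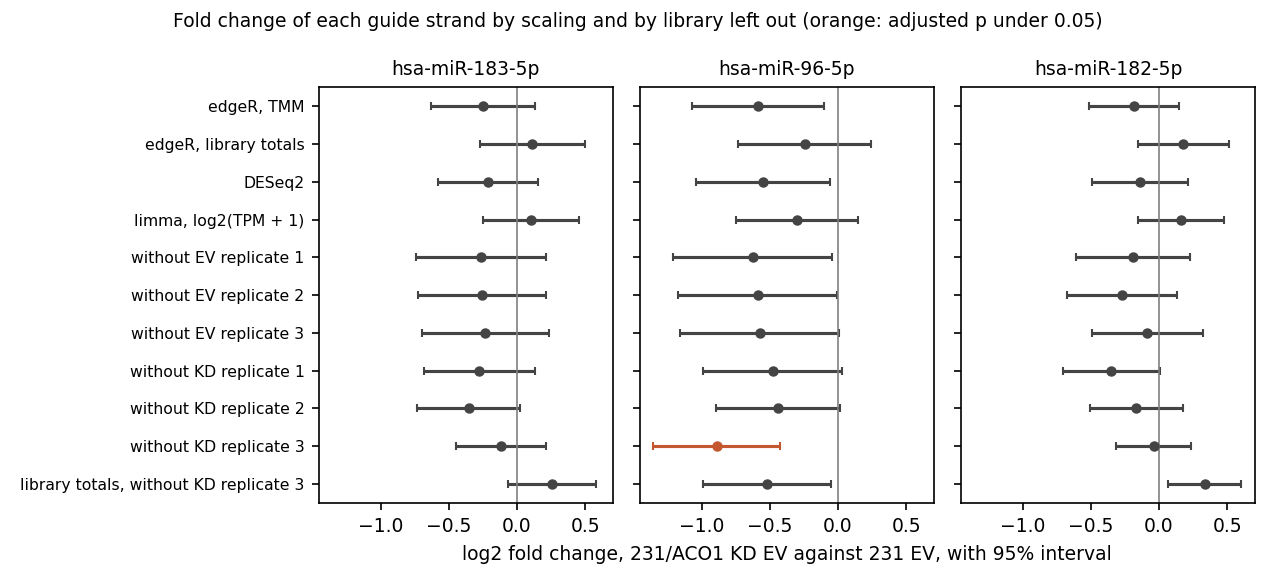
Log2 fold change of each guide strand, 231/ACO1 KD EV against 231 EV (x axis), with its 95% interval, by test, scaling and library left out (y axis); the rows that name only a left-out library are edgeR with TMM scaling, and the vertical line marks no change. hsa-miR-96-5p lies below 0 in each setting drawn and passes an adjusted p of 0.05 (orange) in 1 of the settings drawn, edgeR with TMM scaling without knockdown replicate 3, whereas the other guides lie on both sides of 0.

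Set against each other within a library, the guides need no scaling between libraries. Together they held 963, 901 and 964 reads in 231 EV, against 866, 324 and 592 after knockdown. As a share of all reads, which does depend on the library totals, this was 0.428%, 0.391% and 0.428% in 231 EV and 0.492%, 0.477% and 0.376% after knockdown. The mean was 0.416% ± 0.0216 (SD, n = 3) against 0.449% ± 0.0631 (SD, n = 3), with knockdown replicates 1 and 2 above all of 231 EV and replicate 3 below. After TMM scaling the sum of the guides leaned the other way, at 4353 to 5099 CPM in 231 EV and 3447 to 4441 CPM after knockdown. hsa-miR-96-5p made up 13.2%, 14.5% and 12.7% of the cluster's reads in 231 EV. In 231/ACO1 KD EV it made up 8.20% (95% Wilson interval 6.55 to 10.2), 7.72% (5.28 to 11.1) and 16.6% (13.8 to 19.8). The interval of knockdown replicate 1 lay below those of all 3 libraries of 231 EV, whose lower bounds were 11.2%, 12.4% and 10.7%, and that of replicate 2 overlapped only the lowest of them. Such intervals cover counting error only, so their separation between single libraries does not show a difference between the groups. Knockdown replicate 3 had the highest share of the 6 libraries. hsa-miR-182-5p made up 53.6% to 59.3% in 231 EV and 55.2% to 64.3% in 231/ACO1 KD EV, and hsa-miR-183-5p 28.0% to 31.9% and 27.5% to 34.3%.

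**Figure D3:**
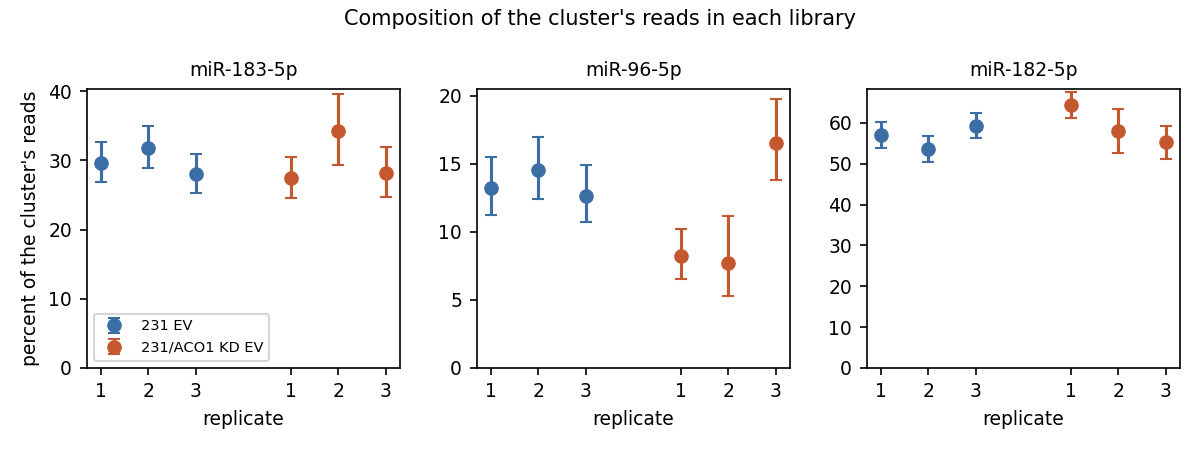
Share of the cluster's reads (y axis, percent, linear from 0, each panel with its own range) held by each guide strand in each library, with replicates on the x axis and 95% Wilson intervals as bars. The share of miR-96-5p is 12.7% to 14.5% in 231 EV (blue) and 8.20%, 7.72% and 16.6% in 231/ACO1 KD EV (orange), while the shares of miR-183-5p and miR-182-5p overlap between groups.

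The ratio of hsa-miR-96-5p to hsa-miR-183-5p, whose hairpins are 135 bases apart, varied little in 231 EV, by less than the counting error of its counts. There it was 0.444, 0.456 and 0.452, against 0.298, 0.225 and 0.587 after knockdown. On the log2 scale its SD was 0.02 in 231 EV and 0.70 in 231/ACO1 KD EV, and the means differed by -0.40 (exact permutation p = 0.4, adjusted over 3 ratios 0.6). The ratio of hsa-miR-96-5p to hsa-miR-182-5p was 0.231, 0.271 and 0.213 against 0.127, 0.133 and 0.300, a log2 difference of -0.46 (exact permutation p = 0.4, adjusted 0.6). The ratio of hsa-miR-183-5p to hsa-miR-182-5p was 0.520, 0.594 and 0.472 against 0.427, 0.590 and 0.511, a log2 difference of -0.06 (exact permutation p = 0.7, adjusted 0.7). These two-sided exact tests cannot give a p below 0.1 with 3 libraries against 3. The direction of both ratios with hsa-miR-96-5p came from knockdown replicates 1 and 2, while replicate 3 lay above all of 231 EV. Leaving out 1 library at a time moved the log2 difference against hsa-miR-183-5p from -0.11 (without knockdown replicate 2) to -0.79 (without knockdown replicate 3), and that against hsa-miR-182-5p from -0.24 (without knockdown replicate 1) to -0.85 (without knockdown replicate 3).

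Nearly all reads of the hairpins came from the guide strand. The hairpins of MIR96 and MIR182 are shown with the guide in capitals, to place it relative to the passenger strand on the other side of the loop.
MIR96: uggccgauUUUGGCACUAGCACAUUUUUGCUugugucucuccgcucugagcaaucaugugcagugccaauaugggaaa
MIR182: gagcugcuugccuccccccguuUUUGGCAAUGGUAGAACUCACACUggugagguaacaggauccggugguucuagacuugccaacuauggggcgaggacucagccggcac

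hsa-miR-182-3p, the passenger at positions 67 to 87 of its hairpin, had 2 reads in all 6 libraries against 2677 of the guide, or 0.0747% of both arms (95% Wilson interval 0.0205 to 0.272). In 231/ACO1 KD EV it had 0 reads beside 1072 of the guide, which allows a share of up to 0.280%. hsa-miR-183-3p had 5 reads against 1359 of its guide, or 0.367% (0.157 to 0.855), with no more than 2 reads in any library. No difference of the passengers between groups could have been detected at such counts. The other arm of MIR96, hsa-miR-96-3p, is not analysed here.

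Other polycistrons served as a reference for how far guides of 1 transcript differ, both in level and in fold change. Mean TPM over the 6 libraries differed 4.92-fold between hsa-miR-182-5p and hsa-miR-96-5p. The same ratio of the highest to the lowest guide was 1.79 for miR-99b/let-7e/miR-125a, 3.33 for miR-191/miR-425, 9.32 for miR-221/miR-222, 12.8 for miR-200b/miR-200a/miR-429, 21.7 for miR-17/miR-18a/miR-19a/miR-20a and 199 for miR-106b/miR-93/miR-25. The cluster thus had the third narrowest range of levels among the 7 polycistrons. These were represented by 2 to 4 guides each, and such a ratio can only grow as guides are added. In single libraries its ratio ran from 3.69 to 4.69 in 231 EV and from 3.34 to 7.85 in 231/ACO1 KD EV.

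The fold changes of the 3 guides lay within 0.41 (SE 0.30) of each other on the log2 scale, from -0.18 for hsa-miR-182-5p to -0.59 for hsa-miR-96-5p. The distance was 0.27 to 0.40 in 5 of the other polycistrons, with an SE of 0.64 for the 0.40 of miR-200b/miR-200a/miR-429, and 0.74 (SE 0.20) in miR-191/miR-425. Only in the last did edgeR's quasi-likelihood test with TMM scaling call 1 guide and not the other, as hsa-miR-425-5p was lower by a log2 fold change of -0.81 (SE 0.15, adjusted p = 7.04e-06). Without 231/ACO1 KD EV replicate 3 the distance was larger in 6 of the 7 polycistrons. It was 1.24 in miR-200b/miR-200a/miR-429, 1.20 in miR-191/miR-425 and 0.85 in the miR-183/miR-96/miR-182 cluster, 0.47 to 0.55 in 3 others, and 0.25 in miR-99b/let-7e/miR-125a. Both guides of miR-221/miR-222 were called lower under TMM and 1 of them under library totals. No guide of the remaining 4 was called under TMM with all libraries, whereas library totals called 2 of 3 guides of miR-99b/let-7e/miR-125a and 1 of 3 of miR-106b/miR-93/miR-25 as higher. Of all tested miRNAs 8.51% were called under TMM and 13.7% under library totals.

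**Figure D4:**
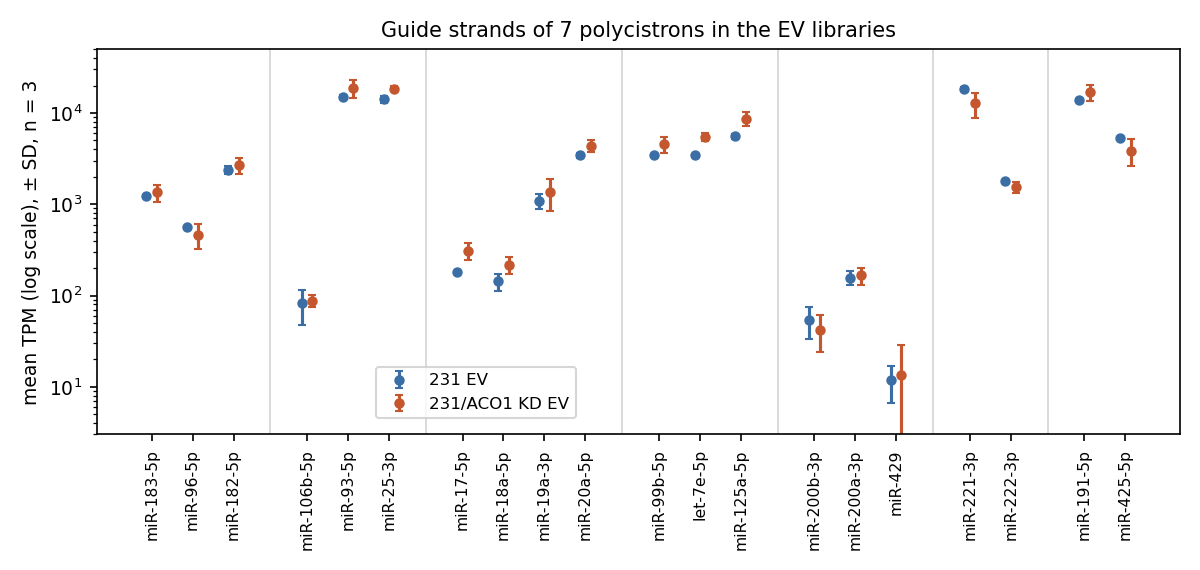
Mean TPM ± SD (y axis, log scale, n = 3 libraries a group) of the guide strands of 7 polycistrons, separated by vertical lines, in 231 EV (blue) and 231/ACO1 KD EV (orange). The SD of miR-429 in 231/ACO1 KD EV exceeds its mean, so its bar runs off the lower edge. The guides of miR-183/miR-96/miR-182, at the left, span 4.92-fold, less than those of miR-106b/miR-93/miR-25 (199-fold) and more than those of miR-99b/let-7e/miR-125a (1.79-fold).

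The guides hsa-miR-96-5p and hsa-miR-182-5p are on the study's list of miRNAs predicted to target AGMAT, the gene of agmatinase, which makes the polyamine precursor putrescine. Of the 13 miRNAs on that list 9 were analysed and 8 tested, of which 2 passed edgeR's quasi-likelihood test as lower and 0 as higher. Among all 517 tested miRNAs 31 passed as lower and 13 as higher (8.51% called). hsa-miR-33a-5p, the miRNA the study followed, had a log2 fold change of -1.10 (SE 0.32, adjusted p = 0.0116), and hsa-miR-22-3p of -0.59 (SE 0.17, adjusted p = 0.0116). hsa-miR-320a-3p, at -0.59 (SE 0.25, adjusted p = 0.121), matched hsa-miR-96-5p in size and did not pass. The median over the 8 was -0.59, against -0.03 over all tested miRNAs. With library totals 0 of the 8 passed, against 13.7% of all tested miRNAs. There edgeR's adjusted p was 0.0919 for hsa-miR-33a-5p and 0.424 for hsa-miR-22-3p. Over all alternatives their adjusted p-values ran from 0.000574 to 0.157 and from 5.05e-07 to 0.424.

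The study's docking model marked the letters CAUUG of hsa-miR-33a-5p as the sequence that meets ACO1. Its pulldown tested the longer CAUUGC, and a probe mutated there did not pull down ACO1. Only the shorter CAUUG was counted here. None of the 3 guides of the cluster holds CAUUG on its mature strand. The motif occurred in 41 of 2370 RefSeq mature miRNAs (1.73%) and in 21 of the 715 miRNAs of the table matched to RefSeq (2.94%).

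Over the 6 libraries, each guide had its own nearest miRNAs, with none in common among those listed here. They were sought after TMM scaling among 214 miRNAs with a mean count of at least 10. The patterns most similar to that of hsa-miR-96-5p were those of hsa-miR-181a-5p (Pearson r = 0.989 on log2 CPM), hsa-miR-26a-5p (0.984) and hsa-miR-205-5p (0.979). hsa-miR-183-5p was most similar to hsa-miR-30a-3p (0.943), hsa-miR-320a-3p (0.911) and hsa-miR-423-5p (0.824). hsa-miR-182-5p was most similar to hsa-miR-16-5p (0.951), hsa-miR-3065-5p (0.929) and hsa-miR-122-5p (0.905). The 6 points share 2 groups and their depths, so these values are a description. Without 231/ACO1 KD EV replicate 3 the values for hsa-miR-96-5p were 0.979 to 0.996, those for hsa-miR-183-5p 0.819, 0.968 and 0.593 in the order given, and those for hsa-miR-182-5p 0.908, 0.825 and 0.772.

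Among themselves, hsa-miR-183-5p and hsa-miR-182-5p correlated at r = 0.68, and hsa-miR-96-5p correlated with them at 0.05 and 0.02. These values moved with the scaling and with the library left out. With library totals the correlation of hsa-miR-96-5p was -0.90 with hsa-miR-183-5p and -0.85 with hsa-miR-182-5p. Leaving out 1 library at a time, the correlation of hsa-miR-183-5p with hsa-miR-182-5p ran from -0.16 (without knockdown replicate 3) to 0.83 (without knockdown replicate 1). That of hsa-miR-96-5p ran from -0.10 to 0.62 with hsa-miR-183-5p and from -0.25 to 0.28 with hsa-miR-182-5p.

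Some lists of marker miRNAs differed between the groups. The MDA-MB-231 line is mesenchymal-like, and the summed level of 6 miRNAs high in such lines, hsa-miR-221-3p, hsa-miR-222-3p, hsa-miR-100-5p, hsa-miR-125b-5p, hsa-miR-29a-3p and hsa-miR-31-5p, ranged over 170177 to 171416 TPM in 231 EV. In 231/ACO1 KD EV it ranged over 189230 to 196005 TPM, but after TMM scaling the sum was lower in the knockdown (162407 to 176847 CPM against 186002 to 202872 CPM). Of these 6, 3 were called lower under TMM (hsa-miR-221-3p, hsa-miR-222-3p and hsa-miR-100-5p), and 2 lower and 2 higher under library totals. The 6 epithelial miRNAs were hsa-miR-205-5p and the miR-200 family, which includes hsa-miR-141-3p. They summed to 858 to 985 TPM in 231 EV and 619 to 992 TPM after knockdown. Of these, 1, hsa-miR-205-5p, was called lower under TMM. After TMM scaling these sums were 1021 to 1097 CPM in 231 EV and 517 to 908 CPM after knockdown. Red cell miRNAs (hsa-miR-451a, hsa-miR-486-5p and both arms of miR-144) gave sums of 2503 to 2676 TPM in 231 EV, and of 1597 to 2123 TPM after knockdown, with 2 of 4 called lower under TMM and under library totals. miRNAs of leukocytes, platelets and endothelium summed to 15231 to 17769 TPM and 25337 to 29938 TPM, with 3 of 5 called higher under TMM and 5 of 5 under library totals. Liver miRNAs summed to 3143 to 3309 TPM and 3349.8 to 4536 TPM, with 0 of 3 called. After TMM scaling the liver sums overlapped, at 3435 to 3914 CPM in 231 EV and 3068 to 4093 CPM after knockdown. The sums of the red cell list and of the leukocyte, platelet and endothelium list kept their direction. Among all tested miRNAs 8.51% were called under TMM and 13.7% under library totals. No marker was at 0 in all libraries, and the part of these markers in the values of the cluster was not tested.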

How the data were processed

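Small RNA libraries were made with the NEBNext small RNA kit and read on an Illumina platform. Per the study's methods, adapters and low-quality ends were cut, sequences of other RNA classes were dropped by comparison with Rfam, and the remainder was assigned to miRBase entries or to predicted miRNAs. The submitters' processing notes name hg38, Bowtie2 and StringTie. The deposited values are whole-number read counts for each miRNA and library and the TPM made from them, in 1 table of 832 miRNAs (782 named, 50 predicted). The deposited TPM equal each count over its library total, scaled to a common sum, to within 4.99e-05.

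Counts of the 517 miRNAs above 0 in at least 3 of 6 libraries were tested with edgeR 4.0.16 in R 4.3.3 (quasi-likelihood test, TMM scaling, no covariate, Benjamini-Hochberg adjustment). The common dispersion was 0.0433 (biological coefficient of variation 20.8%) and the prior degrees of freedom were infinite. Each miRNA therefore takes the quasi-dispersion of a trend over abundance and not its own. A miRNA that varies more than others of its level gets too small a p-value. DESeq2 1.42.0 and limma 3.58.1 on log2(TPM + 1) were alternatives, as were other scalings, filters and pseudocounts, a replicate block and leaving out each library. The scripts were tested on simulated data. Ratios within a library, with 0.5 added to each count, were compared by two-sided exact permutation tests. Shares carry 95% Wilson intervals, and a count of 0 was taken to allow 3 counts.

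Groups follow the sample labels. Replicate numbers were not used as pairs in the main test. Same-numbered libraries showed no strong shared deviation (r = -0.06, -0.04 and 0.12 over 226 miRNAs), which cannot show whether they were prepared together. Named are the members, their passengers, miRNAs of the same seed, the predicted AGMAT regulators, 6 other polycistrons, marker lists and, for each member, the 3 miRNAs of highest Pearson r. hsa-miR-425-5p and the called list members follow from these lists. The members and lists were chosen with earlier results of these data known. Sequences are from RefSeq (GRCh38.p14) and gene positions from GENCODE 29.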

Additional observations from a re-analysis of the deposited data

How the results depend on the processing

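The number of miRNAs called, 44 with TMM, was 71 with library totals, 75 and 76 with limma at pseudocounts of 1 and 10, and 19 to 70 when 1 library was left out. The 231 EV libraries 1 and 3 gave 20 and 19 when left out, and 231/ACO1 KD EV replicate 3 gave 70. Of the 3 guides 0 were called except without that library, when 1 was called by edgeR and 1 by DESeq2 (hsa-miR-96-5p, log2 fold change -0.86). Leaving out 1 library at a time gave hsa-miR-96-5p values of -0.89 to -0.44, hsa-miR-183-5p -0.35 to -0.12 and hsa-miR-182-5p -0.35 to -0.04. The direction reversed for hsa-miR-183-5p with library totals (0.11) and with limma at 3 pseudocounts (0.10 each), and for hsa-miR-182-5p with the same settings (0.18 and 0.16). Each of these values lay below the median of all tested miRNAs in its setting. Settings added after the data were seen, without 231/ACO1 KD EV replicate 3, gave 91 calls with library totals and 82 with limma. There hsa-miR-183-5p stood at 0.26 in both, and hsa-miR-182-5p at 0.34 and 0.33. Both guides lay below the median of all tested miRNAs with library totals (0.345), but above it with limma (0.245). The 95% interval of hsa-miR-182-5p was 0.07 to 0.60 with library totals (edgeR's adjusted p = 0.0791). With limma it was 0.06 to 0.61 (limma's adjusted p = 0.0996). The log2 ratio of hsa-miR-183-5p to hsa-miR-182-5p ran from -0.17 to 0.06 over the libraries left out, reversing without 231 EV replicate 2 (0.0286) or 231/ACO1 KD EV replicate 1 (0.0622). The replicate block gave 44 calls and left hsa-miR-96-5p at -0.62 (edgeR's adjusted p = 0.0782), with 0 guides called. The cause of these differences was not tested. Depth limits the passengers most, and 231/ACO1 KD EV replicate 2 holds only 25 reads of hsa-miR-96-5p.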
